A study of Mus musculus with 8 samples.

Results

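The genes described here are 10 imprinted genes of the mouse, Peg3, Usp29, Zim1, H19, Igf2, Igf2r, Grb10, Plagl1, Mest and Peg10, taken by symbol from a table of read counts for 53700 genes. They were chosen by a measured value, the near loss of Peg3 reads in FIH-KO against WT cells, and their values in that comparison are a description without a test. All 10 symbols were found in the table. Of these, 5 had enough reads to be tested (Peg3, Igf2r, Grb10, Mest and Peg10), 3 were at a few reads at most (Usp29, H19 and Plagl1) and 2 had no read in any library (Zim1 and Igf2).

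An imprinted gene is read mainly from one parental chromosome. In most cases this is because DNA methylation laid down in the egg or the sperm marks the copies differently and is kept through later cell divisions. Peg3, Usp29, Igf2, Plagl1, Mest and Peg10 are known as paternally expressed genes, whereas Zim1, H19, Igf2r and, in most tissues, Grb10 are known as maternally expressed genes. Many of them act on growth: Igf2 is a fetal growth factor, Igf2r carries it to degradation and Grb10 binds activated insulin and IGF1 receptors as an inhibitor. The counts do not separate the parental copies.

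RNA was sequenced from Lewis lung carcinoma (LLC) cells, an established line from a lung tumor of a C57BL mouse, in 4 groups of 2 libraries: WT cells at 21% O2 (WT normoxia), WT cells at 1% O2 (WT hypoxia), FIH-KO cells at 21% O2 (FIH-KO normoxia) and FIH-KO cells at 1% O2 (FIH-KO hypoxia), each held for 16 hours. FIH, the product of Hif1an, is an oxygen-dependent asparaginyl hydroxylase that limits the transcriptional activity of HIF, and it was removed with a Cas9 ribonucleoprotein aimed at exon 2, followed by single-cell dilution. The sources used here do not say whether the sequenced FIH-KO cells were 1 clone or whether the WT cells had passed through the same steps, so the loss of FIH and a difference between cell clones cannot be told apart. Nor do they say that the 2 libraries of a group came from separate cultures, so every p-value measures only the spread between these libraries.

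Library totals ran from 14519731 to 18177016 counts. Hif1an, the edited gene, stood between 82.3 and 90.2 CPM, the count scaled to the library total, in the 4 WT libraries and between 34.8 and 51.0 CPM in the 4 FIH-KO libraries. Of 10 epithelial and lung markers, Epcam, Cdh1, Cldn4, Nkx2-1, Sftpc and Sftpb had 3 counts or fewer in every library, whereas Krt8 and Krt18 had at least 1521 counts in each, so keratins were read without the defining junction and surfactant genes. The summed level of the 10 epithelial and lung markers was 324.7 to 351.0 CPM in WT normoxia against 436.2 to 538.4 CPM in FIH-KO normoxia. In hypoxia it was 221.0 to 273.5 against 327.3 to 432.5 CPM. Of the 3 tested, 2 were called higher in FIH-KO normoxia, 1 in FIH-KO hypoxia and 0 lower in either. The sum of 6 mesenchymal markers was 4501.8 to 5265.8 CPM in WT normoxia against 8386.9 to 9170.0 CPM in FIH-KO normoxia. In hypoxia it was 5665.7 to 6097.8 CPM in WT cells against 9303.9 to 11133.5 CPM in FIH-KO cells. Vim and Fn1 made up most of that sum. Of the 6, 3 were called higher in FIH-KO normoxia and 2 in FIH-KO hypoxia, beside 15.2% and 14.1% of all tested genes. The sum of 6 fibroblast markers, mostly Col3a1, was 1355.6 to 1748.5 against 1826.5 to 2190.9 CPM in normoxia and 604.4 to 737.9 against 1328.5 to 1723.3 CPM in hypoxia, with Thy1 at 0. Of the 4 tested, 0 were called in normoxia, and 1 was higher and 1 lower in hypoxia, beside 28.2% and 28.0% of all tested genes called. Pdgfra went the other way, with means of 26.3 against 17.2 CPM in normoxia and 18.7 against 10.2 CPM in hypoxia. The part of these markers in the results below was not tested. In bulk RNA, fewer cells that express a gene and less RNA per cell cannot be told apart.

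The FIH-KO replicate 1 libraries stood apart from the replicate 2 libraries in one respect that bears on Peg3. Among 9065 genes with at least 100 counts in every WT library, 5 were at 0 in both FIH-KO replicate 2 libraries (Peg3, Ebf3, Smarca2, Add3 and Gm773), and 0 were at 0 in both replicate 1 libraries. All 5 had reads in both FIH-KO replicate 1 libraries, at 1.1% to 8.08% of the WT mean. The cause was not tested, and the list counts or medians and the calls that changed without these libraries are given both ways.

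Peg3 and Usp29 start back to back on chromosome 7, and Peg10 and Sgce do so on chromosome 6. The sequences between the 2 gene models of each pair are shown because the genes on either side behaved differently at the 2 places: Peg3 and Usp29 were both at or near 0 in FIH-KO cells, whereas Peg10 was lower and Sgce, also paternally expressed, was not. They were read from GRCm39, 5′ to 3′, on the minus strand for Peg3 (chr7:6733469-6733576) and on the plus strand for Peg10 (chr6:4747208-4747305), with every CpG dinucleotide, the site of DNA methylation, in capitals.
Usp29 to Peg3: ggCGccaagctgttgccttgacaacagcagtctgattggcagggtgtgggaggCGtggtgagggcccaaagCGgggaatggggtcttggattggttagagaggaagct
Sgce to Peg10: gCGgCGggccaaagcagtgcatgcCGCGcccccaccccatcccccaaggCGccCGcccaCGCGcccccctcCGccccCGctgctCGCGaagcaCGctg
The stretch between Peg3 and Usp29 held 3 CpGs in 108 bases, and that between Peg10 and Sgce held 13 CpGs in 98 bases.

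Promoter windows of 300 bases, from 250 before to 50 after the annotated start, were compared over the 10 members and 13897 tested genes. The median window of the tested genes held 16 CpGs. The Peg3 window held 9, more than 25.3% of those promoters, and the Igf2 window held 7. At the other end, Igf2r had 34 CpGs and Grb10 had 45, more than 91.9% and 98.4% of promoters. The core of the hypoxia response element, ACGTG or GCGTG on either strand, was present in 8 of 10 member windows and in 58.3% of all windows. The Peg3 and Usp29 windows overlap, and the same GCGTG is counted for both. Peg3 and Peg10 had only the GCGTG form, at 1 and 3 places, and Mest and Igf2 had neither. The palindrome CACGTG counts on each strand. GCCATNTT, a motif of the zinc finger factor YY1, was in 0 of 10 member windows and in 7.8% of all windows. These are matches of letters in 1 window per gene, and methylation was not measured.

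Peg3 encodes a large zinc finger protein with roles in maternal behavior, growth and p53-linked cell death. With replicate 1 before replicate 2, as in every list of counts that follows, Peg3 (ENSMUSG00000002265.18, chr7:6706882-6733468, minus strand) had 765 and 1157 counts in WT normoxia, 1147 and 1184 in WT hypoxia, 31 and 0 in FIH-KO normoxia, and 17 and 0 in FIH-KO hypoxia. All 4 FIH-KO libraries lay far below all 4 WT libraries, and only the replicate 1 libraries of FIH-KO cells held any read. WT cells were at 58.8 ± 13.7 CPM in normoxia and 72.6 ± 11.7 CPM in hypoxia (SD, n = 2), and these libraries overlapped.

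**Figure D1:**
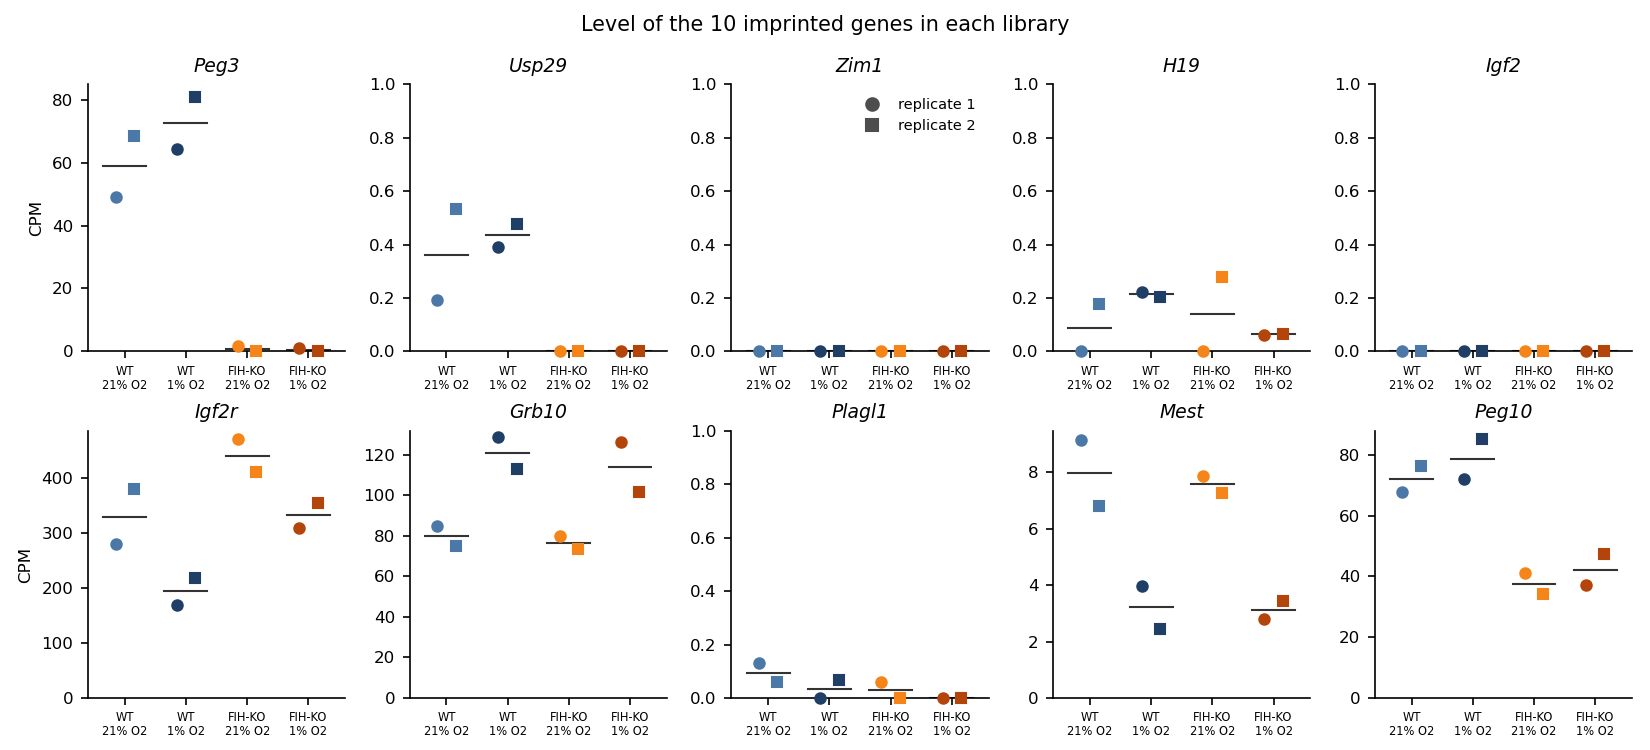
Level of each of the 10 members in CPM (vertical axis, linear, from 0) in the 4 groups, with 1 point per library, a circle for replicate 1, a square for replicate 2 and a line for the group mean. Peg3 was at 49.2 to 80.8 CPM in WT libraries and at 1.85 CPM or less in FIH-KO libraries. Zim1 and Igf2 were at 0 throughout.

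The remainder of Peg3 in the FIH-KO replicate 1 library was 3.14% of the WT mean in normoxia, 31.9-fold lower, and 1.46% in hypoxia, 68.3-fold lower. In the replicate 2 libraries, with no read, the level was at least 350.5-fold lower in normoxia and at least 371.6-fold lower in hypoxia, where a count of 0 is set to a limit of 3 counts in that library. The fitted log2 fold change of FIH-KO against WT cells was -6.02 (SE 0.62) in normoxia and -7.05 (SE 0.68) in hypoxia, values that average a library with reads and a library without. These limits and ratios cover counting error only.

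The other genes of the Peg3 cluster were scarcely read in these cells. Usp29 (chr7:6733577-6970218, plus strand), which encodes a ubiquitin-specific protease and begins beside Peg3, had 3 and 9 counts in WT normoxia and 7 and 7 in WT hypoxia. It had 0 counts in each of the 4 FIH-KO libraries, so the groups did not overlap. Against a limit of 3 counts per library, Usp29 was at least 2.09-fold lower in FIH-KO normoxia and at least 2.27-fold lower in FIH-KO hypoxia, and it did not pass the filter for testing. Zim1 (chr7:6674268-6699500, minus strand), a zinc finger gene downstream of Peg3, had 0 counts in all 8 libraries, as had its neighbors Zim3 and Zfp264.

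Outside this cluster, no gene around Peg3 was called lower in FIH-KO cells. Within 1 Mb of its start, 14 other genes were tested, most of them named as zinc finger genes, and their median log2 fold change of FIH-KO against WT cells was 0.22 in normoxia and 0.12 in hypoxia. Over chromosome 7 the medians were 0.14 and 0.05 (1031 genes), and over all tested genes 0.0 and -0.03. None of the 14 was lower in FIH-KO cells in either condition by the edgeR quasi-likelihood test, beside 13% of all tested genes lower in normoxia and 13.9% in hypoxia. Zfp773 was higher by 1.64 on the log2 scale in normoxia (SE 0.33, edgeR adjusted p = 0.0035) and by 1.49 in hypoxia (SE 0.30, edgeR adjusted p = 0.0032). Clcn4, a chloride/proton exchanger, was higher by 0.57 (SE 0.15, edgeR adjusted p = 0.012) and 0.68 (SE 0.15, edgeR adjusted p = 0.0048). Without WT normoxia replicate 1, neither normoxia call remained (Zfp773 1.26, adjusted p = 0.057, and Clcn4 0.57, adjusted p = 0.093). The Clcn4 call in normoxia was also lost without WT normoxia replicate 2 (0.53, adjusted p = 0.10) or FIH-KO normoxia replicate 2 (0.44, adjusted p = 0.095), and in hypoxia without WT hypoxia replicate 2 (0.58, adjusted p = 0.053).

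**Figure D2:**
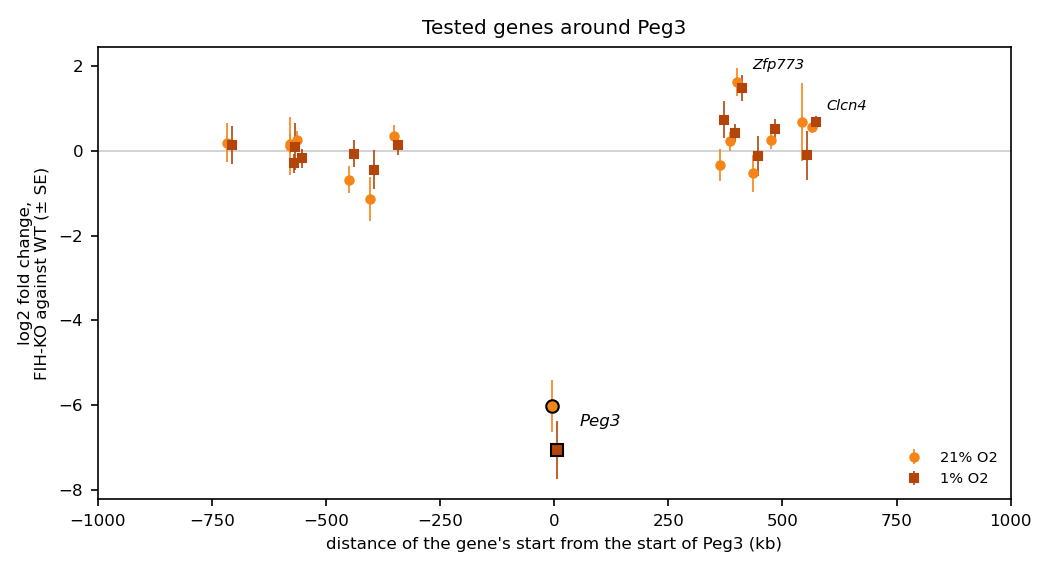
Log2 fold change of FIH-KO against WT cells (vertical axis, ± SE) for Peg3, outlined in black, and the 14 tested genes within 1 Mb, by the distance of each gene's start from that of Peg3 in kb (the 2 oxygen conditions are drawn 5 kb to either side). The neighbors lay between -1.13 and 1.64, while Peg3 stood at -6.02 and -7.05.

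The genes whose pattern over the 8 libraries was most like that of Peg3 lay mostly elsewhere. Likeness was the root mean square difference of centered log2 CPM, ranked over 10575 genes whose mean count reached 50, and every gene near the top shares the gap between WT and FIH-KO cells that chose Peg3. Lgi2, which encodes a secreted leucine-rich protein, was the nearest at 0.545, with 774 and 1110 counts in WT normoxia, 802 and 770 in WT hypoxia, 35 and 1 in FIH-KO normoxia, and 42 and 0 in FIH-KO hypoxia. As with Peg3, its remaining reads were nearly all in FIH-KO replicate 1. Cstf2t (0.788), Gm773 (0.805), Clip3 (0.887) and Adgrl2 (1.0) followed, on chromosomes 19, X, 7 and 3. Of the other members, Peg10 ranked 249, Grb10 4146, Mest 6413 and Igf2r 9521.

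Peg10, a gene derived from a retrotransposon and needed for the placenta, was the other member at a lower level in FIH-KO cells. It (chr6:4747306-4760517, plus strand) had 1054 and 1288 counts in WT normoxia, 1288 and 1249 in WT hypoxia, 691 and 610 in FIH-KO normoxia, and 594 and 728 in FIH-KO hypoxia. Every FIH-KO library lay below every WT library. The level was 72.0 ± 6.05 CPM in WT normoxia against 37.6 ± 4.95 CPM in FIH-KO normoxia, and 78.7 ± 9.25 CPM in WT hypoxia against 42.2 ± 7.27 CPM in FIH-KO hypoxia (SD, n = 2). The log2 fold change of FIH-KO against WT cells was -0.94 (SE 0.15) in normoxia and -0.90 (SE 0.15) in hypoxia. Without both FIH-KO replicate 1 libraries it was -1.10 (SE 0.15) and -0.69 (SE 0.15).

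Sgce, which encodes a sarcoglycan and shares the Peg10 start region, had 182 and 203 counts in WT normoxia and the same numbers, 182 and 203, in FIH-KO normoxia. In hypoxia it had 219 and 186 counts in WT cells and 179 and 235 in FIH-KO cells, so the groups overlapped. Its log2 fold change was -0.10 (SE 0.19, edgeR adjusted p = 0.75) in normoxia and 0.08 (SE 0.19, edgeR adjusted p = 0.78) in hypoxia. Ppp1r9a, a neuronal actin-binding protein gene further along the same cluster, had 30 and 56 counts in WT normoxia, 44 and 36 in WT hypoxia and 0 in all 4 FIH-KO libraries. This put it at least 15.1-fold lower in FIH-KO normoxia and at least 12.9-fold lower in FIH-KO hypoxia. It entered the test only through the WT libraries, so no p is given. Peg10, Sgce and Ppp1r9a thus had 3 different outcomes within 1 imprinted cluster.

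Igf2r, the cation-independent mannose 6-phosphate receptor, stood higher in FIH-KO cells. Igf2r (chr17:12901293-12988614, minus strand) had 4346 and 6407 counts in WT normoxia, 3021 and 3191 in WT hypoxia, 7890 and 7329 in FIH-KO normoxia, and 4948 and 5447 in FIH-KO hypoxia. At the same oxygen level the FIH-KO libraries were above the WT libraries, at 440.0 ± 42.1 against 329.4 ± 70.9 CPM in normoxia and 331.8 ± 32.2 against 193.6 ± 34.3 CPM in hypoxia (SD, n = 2). The log2 fold change was 0.42 (SE 0.16) in normoxia and 0.78 (SE 0.16) in hypoxia. The normoxia value moved to 0.18 without WT normoxia replicate 1 and to 0.63 without WT normoxia replicate 2. Airn, the long noncoding RNA that starts inside Igf2r and runs against it, had 87 to 258 counts per library. Because the strand setting of the counting is not given in the sources used here, reads of Igf2r and Airn may not be fully separated.

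Grb10 and Mest kept nearly the same level in WT and FIH-KO cells. Grb10 (chr11:11880498-11988683, minus strand) had 1322 and 1266 counts in WT normoxia, 2302 and 1655 in WT hypoxia, 1343 and 1309 in FIH-KO normoxia, and 2027 and 1565 in FIH-KO hypoxia. Its log2 fold change of FIH-KO against WT cells was -0.06 (SE 0.13) in normoxia and -0.08 (SE 0.13) in hypoxia. Mest (chr6:30723546-30752058, plus strand), a gene of the alpha/beta hydrolase family, had 142 and 115 counts in WT normoxia, 71 and 36 in WT hypoxia, 132 and 130 in FIH-KO normoxia, and 45 and 53 in FIH-KO hypoxia. Its log2 fold change was -0.07 (SE 0.26) in normoxia and -0.05 (SE 0.30) in hypoxia. For both genes the WT and FIH-KO libraries overlapped at each oxygen level.

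The last members were at or near 0. H19, a noncoding RNA beside Igf2, had 0 and 3 counts in WT normoxia, 4 and 3 in WT hypoxia, 0 and 5 in FIH-KO normoxia, and 1 and 1 in FIH-KO hypoxia. Plagl1, a zinc finger gene, had 2 and 1 counts in WT normoxia, 0 and 1 in WT hypoxia, 1 and 0 in FIH-KO normoxia, and 0 and 0 in FIH-KO hypoxia. Igf2 had 0 counts in all 8 libraries. At this depth no difference could be detected for H19, Plagl1, Igf2 or Zim1. Among the 5 tested members, 0 were called higher and 2 lower in FIH-KO normoxia, beside 15.2% and 13% of all tested genes, and 1 higher and 2 lower in FIH-KO hypoxia, beside 14.1% and 13.9%. Nothing is read from these counts, since this comparison chose the members.

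The comparison of hypoxia with normoxia was not used to choose the members, and it separated them differently. Grb10 rose and Mest fell at 1% O2 in both genotypes, Igf2r fell in WT cells, and Peg3 and Peg10 did not pass the test. In WT cells 1 of 5 tested members was higher and 2 were lower, beside 16.9% and 15.5% of all tested genes. In FIH-KO cells 1 of 5 was higher and 1 was lower, beside 8.84% and 8.0%. In both genotypes and in the same direction, 1 was higher and 1 lower, beside 7.92% and 6.33%. With so few members these shares cannot be set apart from the background. Both comparisons were made with the edgeR quasi-likelihood test across 13933 genes.

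Grb10 went from 80.0 ± 7.04 to 121.0 ± 11.3 CPM in WT cells and from 76.6 ± 4.73 to 114.2 ± 17.5 CPM in FIH-KO cells (SD, n = 2). The log2 fold change was 0.60 in WT cells (SE 0.13, edgeR adjusted p = 0.0049) and 0.58 in FIH-KO cells (SE 0.13, edgeR adjusted p = 0.012), with no overlap between oxygen levels in either. The WT call was lost without WT hypoxia replicate 1 (0.46, adjusted p = 0.069) or WT normoxia replicate 2 (0.47, adjusted p = 0.092), within a range of 0.00021 to 0.092 over all alternatives. The FIH-KO call was lost without FIH-KO hypoxia replicate 1 (0.44, adjusted p = 0.059), FIH-KO normoxia replicate 2 (0.54, adjusted p = 0.063) or both FIH-KO replicate 1 libraries (0.50, adjusted p = 0.052), within a range of 0.00043 to 0.063.

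Mest went from 7.97 ± 1.64 to 3.22 ± 1.08 CPM in WT cells and from 7.57 ± 0.412 to 3.13 ± 0.452 CPM in FIH-KO cells (SD, n = 2). It fell by 1.29 on the log2 scale in WT cells (SE 0.28, edgeR adjusted p = 0.0046) and by 1.27 in FIH-KO cells (SE 0.28, edgeR adjusted p = 0.01). The WT call held under all 16 alternatives, with adjusted p from 2.1e-05 to 0.045. The FIH-KO call was lost without FIH-KO hypoxia replicate 1 (-1.11, adjusted p = 0.057), without FIH-KO normoxia replicate 1 (-1.20, adjusted p = 0.058) and without both (-1.05, adjusted p = 0.10), within a range of 8e-05 to 0.10.

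Igf2r fell by 0.77 in WT cells (SE 0.16, edgeR adjusted p = 0.0042). Only without WT normoxia replicate 2 was that call lost (-0.57, adjusted p = 0.057), within a range of 1.3e-08 to 0.057. In FIH-KO cells its change was -0.41 (SE 0.16, edgeR adjusted p = 0.11), although both hypoxia libraries, at 309.0 and 354.5 CPM, were below both normoxia libraries, at 469.8 and 410.2 CPM. Peg10 changed by 0.13 in WT cells (SE 0.15, edgeR adjusted p = 0.55) and 0.17 in FIH-KO cells (SE 0.15, edgeR adjusted p = 0.51). Peg3 changed by 0.30 in WT cells (SE 0.41, edgeR adjusted p = 0.62). In FIH-KO cells the Peg3 value, -0.73 (SE 1.10, edgeR adjusted p = 0.71), rests on 48 reads in the replicate 1 libraries and turned to 0.24 without FIH-KO hypoxia replicate 2.

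For none of the 5 tested members did a difference between genotypes in the response to hypoxia pass the test. The largest such difference apart from Peg3 was that of Igf2r, 0.36 (SE 0.23, edgeR adjusted p = 0.81), followed by Peg10 at 0.04 (SE 0.21), Grb10 at -0.02 (SE 0.19) and Mest at 0.02 (SE 0.40). For Peg3 it was -1.03 (SE 1.18, edgeR adjusted p = 0.90). Over all tested genes edgeR called 0 such differences (0.00%), with 925 at an unadjusted p under 0.05, and DESeq2 called 35. None of the 5 members reached an unadjusted p of 0.05 in edgeR.

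**Figure D3:**
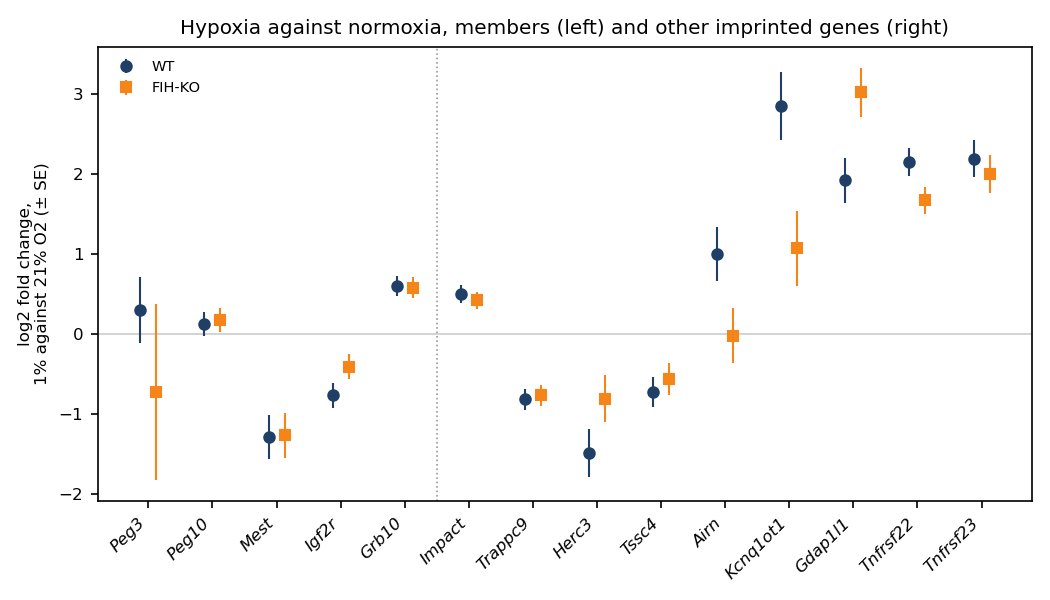
Log2 fold change of 1% against 21% O2 (vertical axis, ± SE) in WT cells (circles) and FIH-KO cells (squares), for the 5 tested members to the left of the dotted line and 9 other imprinted genes to the right. Grb10 stood near 0.60 and Mest near -1.29 in both genotypes, while Tnfrsf22 and Tnfrsf23 rose by 1.67 to 2.19.

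Other imprinted genes were examined from a list of 78, of which 76 were in the table and 28 had 3 counts or fewer in every library. The silent ones included Dlk1, Meg3, Rtl1 and Rian of the chromosome 12 cluster. Of the 43 that were tested, 12 were higher and 7 lower in FIH-KO cells in both oxygen conditions, 44.2% of the list beside 18.7% of all tested genes (9.97% higher and 8.68% lower). The median log2 fold change of the 43 was 0.08 in normoxia and 0.17 in hypoxia, beside 0.0 and -0.03 over all genes. In each condition alone, 12 were higher and 10 lower in normoxia (51.2%, beside 28.2%), and 13 higher and 10 lower in hypoxia (53.5%, beside 28.0%). Leaving out both FIH-KO replicate 1 libraries gave 10 higher and 9 lower in normoxia, beside 22.5% of the 14492 genes then tested, and 12 higher and 9 lower in hypoxia, beside 29.9%, with medians of 0.04 and 0.10. In normoxia the number higher fell without replicate 1 of WT or of FIH-KO cells, and the number lower fell without WT normoxia replicate 1. In hypoxia the number higher fell without either WT hypoxia library. Each of these fits leaves 1 library in a group. The share of all tested genes called in them was not compared, so a fall particular to the list is not shown. Genes that passed the filter only through the WT libraries had to differ. With at least 10 counts required in every library, 35 of the list were tested, of which 11 were higher and 0 lower in both conditions, beside 10.4% higher and 8.90% lower of 11648 genes under that filter. The list was chosen with results of these data known.

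**Figure D4:**
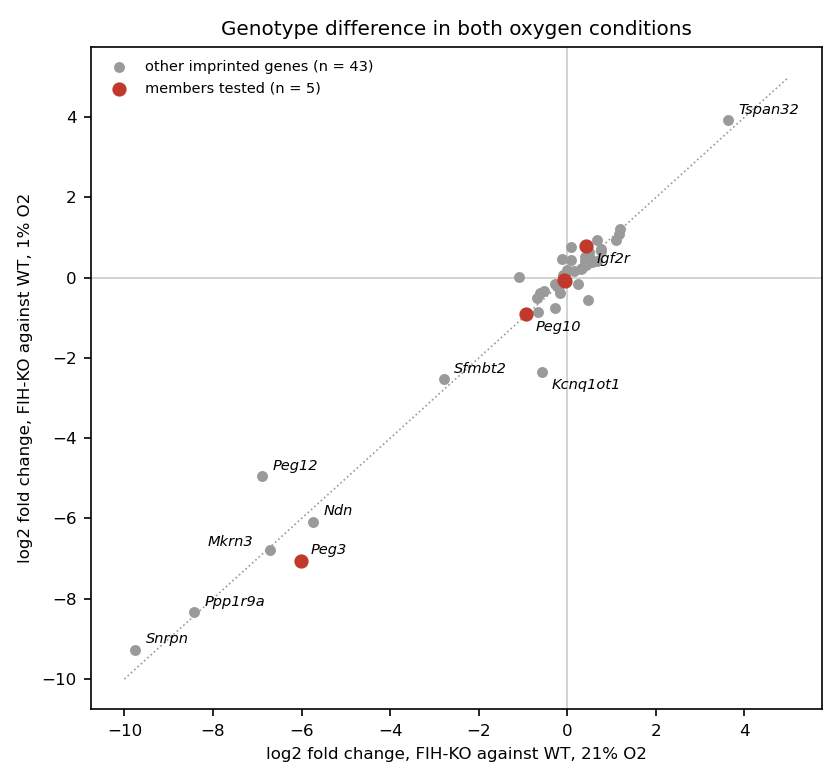
Log2 fold change of FIH-KO against WT cells at 21% O2 (horizontal axis) and at 1% O2 (vertical axis) for the 5 tested members (red) and 43 other imprinted genes (gray), with the line of equality dotted. Peg3 lies with Snrpn, Ppp1r9a, Mkrn3, Ndn and Peg12 at the lower left, where 1 group is at or near 0 and the fitted values depend on the prior count.

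The lower genes included, beside Ppp1r9a, paternally expressed genes of the Prader-Willi region, a second imprinted cluster on chromosome 7. Snrpn, a splicing factor gene whose start is the imprinting center, had 101 and 113 counts in WT normoxia, 74 and 78 in WT hypoxia and 0 in all 4 FIH-KO libraries. It was at least 38.0-fold lower in normoxia and at least 24.8-fold lower in hypoxia, and, like Ppp1r9a, is given without a p. Ndn, a growth suppressor of the MAGE family, had 62 and 51 counts in WT normoxia, 60 and 28 in WT hypoxia, 2 and 0 in FIH-KO normoxia, and 1 and 0 in FIH-KO hypoxia. Summed over libraries it was 60.4-fold lower in normoxia (95% exact counting interval 16.3 to 504.5) and 85.0-fold lower in hypoxia (14.9 to 3394.1).

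Peg12 had 72 and 69 counts in WT normoxia, 62 and 42 in WT hypoxia, 1 and 0 in FIH-KO normoxia, and 3 and 0 in FIH-KO hypoxia, 150.6-fold (26.6 to 5991.6) and 33.5-fold (11.1 to 165.0) lower. As with Peg3, the few reads of Ndn and Peg12 in FIH-KO cells were all in the replicate 1 libraries. Mkrn3, a ubiquitin ligase gene that restrains puberty, had 10 and 16 counts in WT normoxia, 12 and 15 in WT hypoxia and 0 in all FIH-KO libraries, at least 4.59-fold and 4.43-fold lower. The neighboring Ube3a, which is imprinted in neurons, had 2238 to 2922 counts in every library and did not pass the test (-0.06, SE 0.11, edgeR adjusted p = 0.74 in normoxia, and -0.04, SE 0.11, edgeR adjusted p = 0.81 in hypoxia).

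Sfmbt2, a paternally expressed Polycomb gene on chromosome 2, had 18 and 16 counts in WT normoxia, 26 and 28 in WT hypoxia, 5 and 0 in FIH-KO normoxia, and 9 and 0 in FIH-KO hypoxia. Its log2 fold change was -2.79 (SE 0.96) in normoxia and -2.52 (SE 0.82) in hypoxia. Like Ppp1r9a, Sfmbt2 entered the test only through the WT libraries, so no p is given. Either call was lost when any 1 WT library was left out, and each was also lost without the FIH-KO replicate 2 library of that condition.

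**Figure D5:**
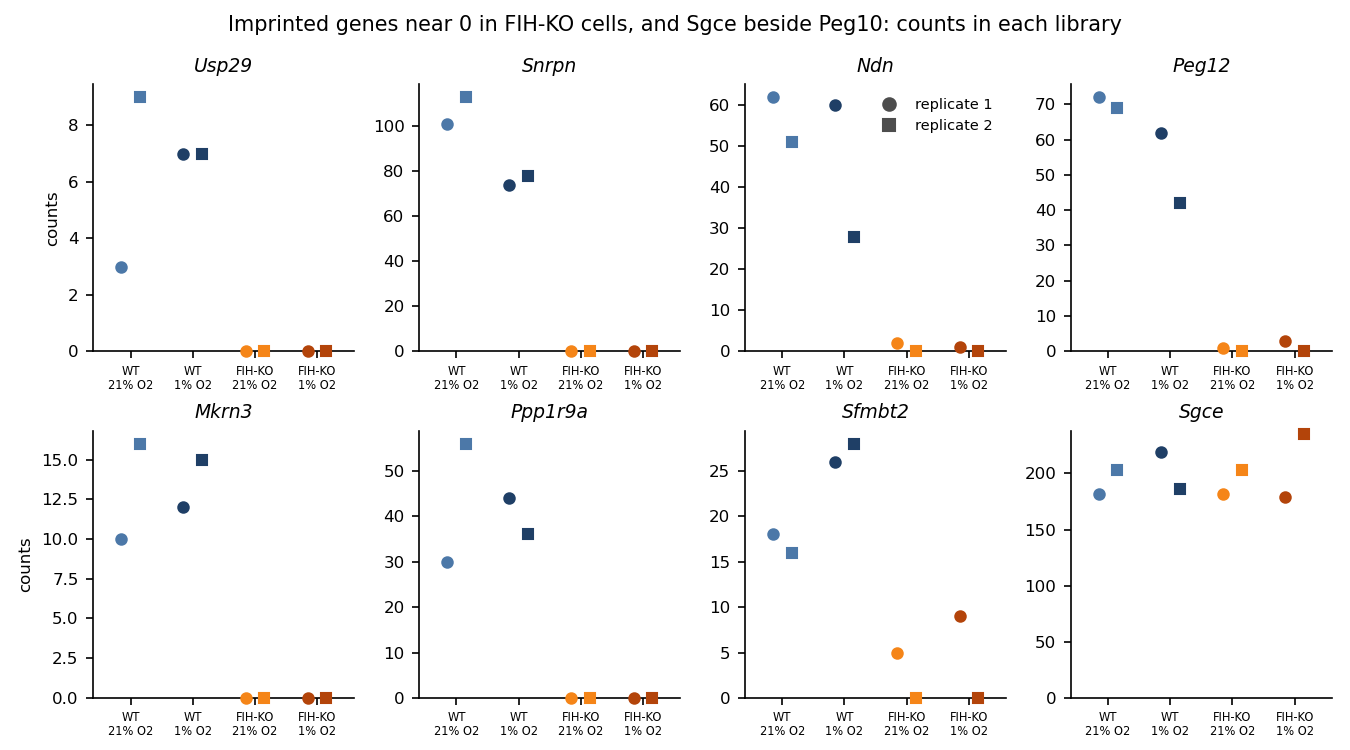
Counts in each library (vertical axis, linear, from 0) of Usp29, of 6 other imprinted genes at or near 0 in FIH-KO cells, and of Sgce, in the 4 groups, with circles for replicate 1 and squares for replicate 2. Snrpn, Mkrn3, Ppp1r9a and Usp29 had 0 counts in all 4 FIH-KO libraries, whereas Sgce had 179 to 235 counts.

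Among the higher genes, Impact, a regulator of the stress kinase Gcn2, had 615 and 664 counts in WT normoxia, 1041 and 779 in WT hypoxia, 1559 and 1491 in FIH-KO normoxia, and 1889 and 1803 in FIH-KO hypoxia. It was higher in FIH-KO cells by 1.16 on the log2 scale in normoxia (SE 0.11, edgeR adjusted p = 3.1e-05) and by 1.08 in hypoxia (SE 0.11, edgeR adjusted p = 4.8e-05). Zrsr1, a splicing factor gene, had 285 and 240 counts in WT normoxia, 238 and 313 in WT hypoxia, 650 and 565 in FIH-KO normoxia, and 563 and 484 in FIH-KO hypoxia. Its log2 fold change was 1.11 (SE 0.21, edgeR adjusted p = 0.0026) and 0.95 (SE 0.21, edgeR adjusted p = 0.0063), the latter lost without WT hypoxia replicate 1 (0.68, adjusted p = 0.056). Impact and Zrsr1 are both known as paternally expressed, so the paternally expressed genes of the list were found on either side of 0.

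Atp10a, a phospholipid flippase gene of the Prader-Willi region, was higher by 0.77 and 0.72, Peg13, a noncoding RNA inside Trappc9, by 0.68 and 0.95, and Dhcr7, the last enzyme of cholesterol synthesis, by 0.75 and 0.66 (edgeR adjusted p from 0.0039 to 0.023). These 3 genes lost at least 1 of their calls when 1 library was left out. The normoxia call of Peg13 was also lost without both FIH-KO replicate 1 libraries (0.38). Trappc9, on the same strand as Peg13, was itself higher by 0.49 in normoxia (edgeR adjusted p = 0.013) and by 0.54 in hypoxia (edgeR adjusted p = 0.01). Both Trappc9 calls were lost without certain single libraries. Reads of Peg13 and Trappc9 may not be fully separated. Tspan32, a tetraspanin gene, had 0 and 1 counts in WT normoxia, 1 and 0 in WT hypoxia, 11 and 5 in FIH-KO normoxia, and 13 and 5 in FIH-KO hypoxia, 15-fold (2.33 to 628.0) and 18.6-fold (2.94 to 776.6) higher. Tspan32 entered the test only through the FIH-KO libraries, so no p is given. Its call was lost in both conditions with DESeq2 and without either WT library or the FIH-KO replicate 1 library of that condition.

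In hypoxia, 7 of the 43 other imprinted genes were higher and 7 lower in WT cells (32.6%, beside 32.4% of all tested genes), and 5 were higher and 2 lower in FIH-KO cells (16.3%, beside 16.8%). With all libraries the list therefore moved about as often as the background. Without both FIH-KO replicate 1 libraries it was called more often than all tested genes in both genotypes, with medians of -0.14 in WT and 0.0 in FIH-KO cells. That fit has 1 FIH-KO library per condition. The numbers of lower genes shifted with the libraries used: in WT cells it was 2 to 11 when 1 library was left out and 13 without both FIH-KO replicate 1 libraries. Tnfrsf22 and Tnfrsf23, decoy receptors of the TRAIL family in the distal chromosome 7 cluster, rose in both genotypes. Tnfrsf22 had 445 and 464 counts in WT normoxia, 2347 and 1716 in WT hypoxia, 391 and 416 in FIH-KO normoxia, and 1416 and 911 in FIH-KO hypoxia. It rose by 2.15 (SE 0.17, edgeR adjusted p = 8.5e-06) and 1.67 (SE 0.17, edgeR adjusted p = 7.6e-05), and Tnfrsf23 by 2.19 (SE 0.23, edgeR adjusted p = 4.3e-05) and 2.0 (SE 0.24, edgeR adjusted p = 0.00024).

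Gdap1l1 rose by 1.92 in WT cells (SE 0.28, edgeR adjusted p = 0.0004) and by 3.02 in FIH-KO cells (SE 0.31, edgeR adjusted p = 7.6e-05). Its counts were 22 and 32 in WT normoxia, 111 and 93 in WT hypoxia, 13 and 14 in FIH-KO normoxia, and 109 and 91 in FIH-KO hypoxia. Trappc9, a trafficking complex subunit gene, fell by 0.82 (SE 0.13, edgeR adjusted p = 0.00076) and 0.77 (SE 0.13, edgeR adjusted p = 0.002). Herc3 fell by 1.49 in WT cells (SE 0.30, edgeR adjusted p = 0.0033), with a value of -0.81 in FIH-KO cells (SE 0.29, edgeR adjusted p = 0.074). Tssc4 fell by 0.73 in WT cells (SE 0.19, edgeR adjusted p = 0.012), a call lost without WT hypoxia replicate 2 (-0.65, adjusted p = 0.073) or WT normoxia replicate 2 (-0.71, adjusted p = 0.081).

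The long noncoding RNAs of 2 clusters had uneven replicates in WT hypoxia. Kcnq1ot1, which silences neighboring genes on the paternal chromosome 7, had 46 and 53 counts in WT normoxia, 231 and 457 in WT hypoxia, 28 and 43 in FIH-KO normoxia, and 45 and 89 in FIH-KO hypoxia. It rose by 2.85 in WT cells (SE 0.42, edgeR adjusted p = 0.00045), while its value in FIH-KO cells was 1.07 (SE 0.47, edgeR adjusted p = 0.14). The difference between the genotypes, -1.78 (SE 0.63), had an edgeR adjusted p of 0.60, which ranged from 0.002, without the filter on low counts, to 1 over the alternatives. Airn, the counterpart in the Igf2r cluster, had 87 and 115 counts in WT normoxia and 132 and 258 in WT hypoxia, a rise of 1.00 (SE 0.34, edgeR adjusted p = 0.043). Without WT hypoxia replicate 2 it was 0.25 (adjusted p = 0.60), and the call was also lost without either WT normoxia library (adjusted p = 0.22 and 0.12) or either FIH-KO normoxia library (adjusted p = 0.063 and 0.063).

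Factors linked to the setting, keeping or loss of imprints were examined next, as 17 tested genes of a list of 20. The list holds Tet1, Tet2 and Tet3, which oxidize methylcytosine, so its counts do not measure the keeping of imprints alone. Tet2 is among the genes counted as lower, and all of these Tet genes are among those higher in WT hypoxia. In FIH-KO cells 0 were higher and 4 lower in each oxygen condition (23.5% of the list lower, beside 13% and 13.9% of all tested genes), and the median log2 fold change was -0.11 in normoxia and -0.24 in hypoxia. Without both FIH-KO replicate 1 libraries, the median was -0.09 in normoxia but -0.03 in hypoxia, where not all of these calls were kept. Zfp57, a zinc finger protein that binds methylated imprinting control regions, had 206 and 216 counts in WT normoxia, 432 and 416 in WT hypoxia, 32 and 53 in FIH-KO normoxia, and 42 and 57 in FIH-KO hypoxia. It was lower in FIH-KO cells by 2.41 on the log2 scale in normoxia (SE 0.25, edgeR adjusted p = 4.7e-05) and by 3.05 in hypoxia (SE 0.24, edgeR adjusted p = 8.8e-06), and the highest FIH-KO library was far below the lowest WT library.

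Tet2, an enzyme that oxidizes methylcytosine, had 287 and 337 counts in WT normoxia, 1110 and 1049 in WT hypoxia, 131 and 175 in FIH-KO normoxia, and 474 and 417 in FIH-KO hypoxia. It was lower by 1.12 (SE 0.16, edgeR adjusted p = 0.00042) and 1.24 (SE 0.15, edgeR adjusted p = 0.00013). Setdb1, a histone H3 lysine methyltransferase recruited by such zinc finger proteins, was lower by 0.63 (SE 0.10, edgeR adjusted p = 0.0011) and 0.73 (SE 0.10, edgeR adjusted p = 0.00046). Tet2 and Setdb1 both lie on chromosome 3, where 683 tested genes had medians of -0.36 in normoxia and -0.41 in hypoxia. Zfp57 lies on chromosome 17, with medians of 0.17 and 0.12. The part of the chromosomes in these values was not tested. Dnmt1, the maintenance DNA methyltransferase, was lower by 0.51 (SE 0.15, edgeR adjusted p = 0.02) and 0.45 (SE 0.15, edgeR adjusted p = 0.038). The Dnmt1 call in hypoxia was lost when any 1 library was left out except FIH-KO hypoxia replicate 2, with -0.18 (adjusted p = 0.30) without FIH-KO hypoxia replicate 1 and -0.18 (adjusted p = 0.24) without both FIH-KO replicate 1 libraries. Its call in normoxia was lost without FIH-KO normoxia replicate 1 (adjusted p = 0.11), WT normoxia replicate 1 (adjusted p = 0.073) or WT normoxia replicate 2 (adjusted p = 0.10). The insulator protein gene Ctcf had values of -0.39 (SE 0.14, edgeR adjusted p = 0.052) and -0.26 (SE 0.14, edgeR adjusted p = 0.18).

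In hypoxia, 7 of the 17 were higher and 1 was lower in WT cells (47.1%, beside 32.4% of all tested genes), and 8 higher and 4 lower without both FIH-KO replicate 1 libraries, beside 39.9%. In FIH-KO cells 3 were higher and 0 lower (17.6%, beside 16.8%), and without both FIH-KO replicate 1 libraries 2 were higher and 0 lower, beside 8.78%. Tet2 rose by 1.80 in WT cells (SE 0.15, edgeR adjusted p = 1.1e-05) and by 1.69 in FIH-KO cells (SE 0.16, edgeR adjusted p = 4.5e-05). Dnmt3l, a cofactor of imprint-setting methyltransferases in germ cells, rose by 1.95 (SE 0.36, edgeR adjusted p = 0.0017) and 1.91 (SE 0.34, edgeR adjusted p = 0.0028), and without both FIH-KO replicate 1 libraries the FIH-KO value was 1.24 (adjusted p = 0.057). Zfp57 rose by 1.01 in WT cells (SE 0.21, edgeR adjusted p = 0.0036), a call lost without WT normoxia replicate 2 (0.95, adjusted p = 0.05), and its value in FIH-KO cells was 0.37 (SE 0.28, edgeR adjusted p = 0.40). The difference between the genotypes did not pass the test for Zfp57 (-0.64, SE 0.35, edgeR adjusted p = 0.80).

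Partners of the members in insulin and IGF signaling and in cell death gave 14 tested genes of 20. Of these, 5 were higher and 3 lower in FIH-KO normoxia (57.1%, beside 28.2%), and 4 higher and 2 lower in FIH-KO hypoxia (42.9%, beside 28.0%). Their median log2 fold change was 0.12 in normoxia and 0.06 in hypoxia. Without both FIH-KO replicate 1 libraries, which leaves 1 FIH-KO library per condition, it was 0.18 and 0.1. Igf1, Igfbp1, Igfbp2, Igfbp3 and Igfbp5 had at most 5 counts in any library. Grb14, an adaptor of the Grb10 family, had 47 and 48 counts in WT normoxia, 60 and 35 in WT hypoxia, 10 and 7 in FIH-KO normoxia, and 10 and 0 in FIH-KO hypoxia. It was lower by 2.56 (SE 0.60) and 3.16 (SE 0.66), and the normoxia call was lost without FIH-KO normoxia replicate 2 (-2.31). Grb14 entered the test through the WT libraries, so no p is given. The hypoxia value was -2.19 without FIH-KO hypoxia replicate 2, which has no read, and -8.55, which depends on the prior count, without FIH-KO hypoxia replicate 1.

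Igfbp6, a binding protein with a preference for IGF2, was higher by 1.32 (SE 0.25, edgeR adjusted p = 0.0023) and 1.06 (SE 0.25, edgeR adjusted p = 0.0084), the latter lost without WT hypoxia replicate 2 (0.89, adjusted p = 0.081). Irs2, an insulin receptor substrate, was higher by 0.82 (SE 0.13, edgeR adjusted p = 0.00075) and 0.61 (SE 0.13, edgeR adjusted p = 0.0045). Its relative Irs1 was higher by 0.46 (SE 0.15, edgeR adjusted p = 0.037) and 0.54 (SE 0.15, edgeR adjusted p = 0.019), and each of these calls was lost when certain single libraries were left out (adjusted p up to 0.22). Bax, a cell death effector linked to Peg3, was higher by 0.55 (SE 0.14, edgeR adjusted p = 0.01) and 0.58 (SE 0.14, edgeR adjusted p = 0.0083). The normoxia call of Bax was lost without FIH-KO normoxia replicate 1 (0.43, adjusted p = 0.11), WT normoxia replicate 1 (0.53, adjusted p = 0.091) or WT normoxia replicate 2 (0.52, adjusted p = 0.083), and its hypoxia call without WT hypoxia replicate 2 (0.48, adjusted p = 0.079). Igf2bp1, which binds Igf2 mRNA, was lower by 0.65 (SE 0.16, edgeR adjusted p = 0.011) and 0.97 (SE 0.16, edgeR adjusted p = 0.001), the former lost without FIH-KO normoxia replicate 1 (-0.49, adjusted p = 0.099) or WT normoxia replicate 1 (-0.64, adjusted p = 0.073).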

How the data were processed

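Total RNA of WT and FIH-KO LLC cells was made into stranded mRNA libraries, 8 in all. The authors aligned the reads with STAR to GRCm39 and deposited HTSeq counts per gene, whole numbers without normalization. The strand setting of the counting and the annotation release are not given in the sources used here. Gene identifiers were matched to GENCODE vM39 on GRCm39 (97.97% found), which gave coordinates. Promoter windows came from the canonical transcript start.

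Counts were tested with edgeR 4.0.16 (R 4.3.3): filterByExpr by group (13933 genes kept), TMM factors (0.983 to 1.02), a fit over all 4 groups, the quasi-likelihood F test and Benjamini-Hochberg adjustment, with a call at an adjusted p of 0.05. CPM used TMM-scaled totals. The SE given with an edgeR value is the absolute log2 fold change divided by the square root of F. Where a group is near 0 counts, as for Peg3, it is only a rough guide. The biological coefficient of variation was 11.7%, and the fit was tested on simulated data. Alternatives were DESeq2 1.42.0, 2 other normalizations, 2 other filters, only the 4 libraries compared, a replicate block, each library left out and, chosen after seeing the data, both FIH-KO replicate 1 libraries left out.

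The members and gene lists were chosen with earlier results of these data known. Named genes were the 10 members, other imprinted genes called alike in both genotype comparisons (at most 12, largest smaller change first) or in a hypoxia comparison (at most 8, largest change first), and at most 6 imprint factors and 6 partners. Genes named as silent, unchanged or uneven were picked after their values were seen. Bounds set 0 counts to 3 per library, and intervals of ratios are exact (Clopper-Pearson, 95%). Protein sequences were not used here.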

Additional observations from a re-analysis of the deposited data

How the results depend on the processing

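Precision is limited by 2 libraries per group, and genes under about 10 counts, Usp29, H19 and Plagl1 among them, cannot show moderate changes at this depth. Numbers of members called in FIH-KO against WT normoxia were 0 higher and 2 lower, and became 1 higher without the filter on low counts and with the replicate block, and 1 lower with DESeq2 and with at least 10 counts in every library, where Peg3 is not tested. That filter also gave 1 lower member in hypoxia, 4 lower other imprinted genes in normoxia and 3 in hypoxia. For hypoxia in FIH-KO cells, no filter gave 2 lower members and 5 lower other imprinted genes, only the 4 libraries compared gave 1, and the replicate block gave 4. Without both FIH-KO replicate 1 libraries, 0 members were higher and 0 lower in that comparison, 1 other imprinted gene was lower in it, and 13 were lower in WT hypoxia. For the difference between oxygen conditions, no filter called 1 other imprinted gene lower.

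With each library left out in turn, members higher ranged from 0 to 1 in every comparison of 2 groups; members lower stayed at 2 for the genotype comparisons, and ranged from 1 to 2 for hypoxia in WT cells and 0 to 1 in FIH-KO cells. Other imprinted genes ranged from 3 to 15 higher and 5 to 11 lower in FIH-KO normoxia, 5 to 13 higher and 7 to 9 lower in FIH-KO hypoxia, 4 to 9 higher and 2 to 11 lower for hypoxia in WT cells, and 3 to 5 higher and 1 to 3 lower in FIH-KO cells. Of the other imprinted genes in FIH-KO normoxia, 3 were higher and 5 lower without WT normoxia replicate 1, and 4 were higher without FIH-KO normoxia replicate 1; in FIH-KO hypoxia, 5 were higher without WT hypoxia replicate 1 and 8 without replicate 2. For hypoxia in WT cells, 4 were higher and 2 lower without WT normoxia replicate 2, 3 were lower without either WT hypoxia library and 11 without FIH-KO hypoxia replicate 1; in FIH-KO cells 3 were higher without FIH-KO normoxia replicate 2, and 1 was lower without FIH-KO normoxia replicate 1 or either WT normoxia library. Each of these fits leaves 1 library in a group, and the share of all tested genes called was not set beside these counts. Nothing about the list is read from them, and the cause of the shifts was not tested.

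In the hypoxia comparisons and the difference between genotypes, the sign turned only for member values that did not pass the test. The response of Peg10 to hypoxia was 0.0 in WT cells without WT hypoxia replicate 2 and -0.03 in FIH-KO cells without FIH-KO hypoxia replicate 2 (ranges 0.0 to 0.21 and -0.03 to 0.36). That of Peg3 in FIH-KO cells was 0.24 without FIH-KO hypoxia replicate 2 and 6.17 without FIH-KO normoxia replicate 1, ranging from -6.89 to 6.17. The difference between genotypes turned for Grb10 under upper-quartile scaling and under the filter of 10 counts (0.01 in each), and ranged from -0.12 to 0.14 with a library left out, for Mest from -0.27 to 0.48, for Peg10 from -0.14 to 0.27 and for Peg3 from -7.15 to 5.91.

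Whether replicate numbers pair the samples is not settled, and the labels do not say that a number marks a shared culture. Over 6072 genes of higher level, the correlation of same-numbered deviations ran from -0.186 to 0.303 over the pairs of groups. That set left out Peg3, whose FIH-KO reads were all in replicate 1 at both oxygen levels. With the replicate block the other imprinted genes called were 14 higher and 10 lower in FIH-KO normoxia and 14 higher and 11 lower in FIH-KO hypoxia. The Peg3 neighbors within 500 kb in place of 1 Mb (8 genes) had medians of -0.05 and 0.29.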

Other observations

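Over whole chromosomes, the median log2 fold change of FIH-KO against WT cells on chromosome 6, with Peg10 and Mest, was at -0.12 in normoxia and -0.13 in hypoxia (681 genes), chromosome 11, with Grb10, at -0.05 and -0.08 (1098 genes), and chromosome 17, with Igf2r and Zfp57, at 0.17 and 0.12 (709 genes). The medians farthest from 0 were those of chromosome 19 (-0.38 and -0.45, 476 genes) and chromosome 3 (-0.36 and -0.41, 683 genes), which hold no member. Chromosome 3 holds Tet2 and Setdb1 of the imprint factors. Around Peg10, the medians of the 10 tested genes within 1 Mb were 0.04 and 0.25, with Ppp1r9a as the lowest in both conditions. Around Igf2r, 17 tested genes had medians of 0.13 and 0.05.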
